A study of Mus musculus with 18 samples.

Results

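The comparison described here set mature against immature group 2 innate lymphoid cells (ILC2) from the bone marrow of control mice. Its members were chosen by the stage and genotype in the labels: 3 mature and 3 immature control libraries, 6 of the 18 libraries of the series, with every gene of the count table. Mature control libraries came from bone marrow ILC2 of Rag2 KO mice labelled mature, and immature control libraries from bone marrow ILC2 of Rag2 KO mice labelled immature or ILC2P. The other libraries came from the same marrow stages of CD45 KO x Rag2 KO mice and from lung ILC2 of both genotypes, 3 libraries each. The labels give no treatment beyond the stage, and they give no age, sex or background strain.

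Every mouse, controls included, lacked Rag2, so it had no T or B cells, and ILC2 stages were compared in a host without adaptive lymphocytes. Cells were sorted by flow cytometry, 200 per sample in one protocol text and 100 per tube in another, which the sources used here do not settle. The labels do not name the surface proteins used for the sort. Nothing in them says whether the 3 libraries of a group came from separate mice, so p-values measure the spread between these libraries, which may be technical.

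ILC2 are tissue lymphocytes without antigen receptors that answer alarm cytokines from epithelium, chiefly IL-33, IL-25 and TSLP, by releasing IL-5 and IL-13. They depend on the transcription factors GATA3 and RORα and develop in the bone marrow from lymphoid progenitors through a stage with high IL-7 receptor, ST2 and Sca-1. KLRG1, an inhibitory lectin-like receptor that binds cadherins, is low on marrow ILC2 precursors and present on many mature ILC2 in tissue. It is the gene used here as the marker of the mature stage.

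The 6 libraries were shallow. Total counts were 69987, 73968 and 103057 in mature and 87647, 94758 and 84446 in immature control libraries, with 7669 to 8634 genes detected, and 1916 of 24781 gene entries had enough counts to be tested. The ILC2 identity genes Gata3, Il1rl1 and Rora were present in all 6 libraries, and Cd3e, Cd3d, Ms4a1, Ncr1, Eomes, Il23r, Flt3 and Cd34, which define T, B, NK, ILC3 and stem or progenitor cells, had 0 counts in all 6. A list of 14 neutrophil and granulocyte precursor markers summed to 2850, 180 and 100 CPM in mature and to 55.3, 41.4 and 12.2 CPM in immature control libraries, with Ly6g and Fcnb at 0 in all 6. Mature control replicate 1 therefore stood apart. Without it Klrg1 was still the 1 gene called. In the comparison averaged over genotypes, given further on, Fgl2, Hmgb2 and Mif then lost their calls (adjusted p = 0.13, 0.228 and 0.25). Over the 12 fits that each left out 1 marrow library, these calls were kept in 6, 5 and 0. Their loss was thus not particular to this library. All 12 marrow libraries had counts of Y-linked genes and 0 counts of Xist, so the stages did not differ in this sign of sex.

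Klrg1 was the one gene that passed the test, and it matched the stage label in every library. Of the 1916 genes tested, 0.0522% passed at an adjusted p under 0.05 (quasi-likelihood test of edgeR, adjusted over all tested genes by Benjamini-Hochberg). The gene lies at chr6:122270596-122282882 on the minus strand of mm10 (GENCODE M21, ENSMUSG00000030114.8, 1 protein-coding transcript with 5 exons). Levels are CPM, counts scaled by library size and a normalisation factor.

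Klrg1 had 134, 305 and 251 CPM in mature and 0, 31.0 and 24.4 CPM in immature control libraries. The lowest mature library lay above the highest immature one, and the groups did not overlap. Behind these levels stood 9, 22 and 25 counts in mature and 0, 3 and 2 counts in immature control libraries. In mature control replicate 1 the 95% Poisson interval was 61.3 to 255 CPM, and the 0 counts of immature replicate 1 allowed up to 40.8 CPM. Such intervals, and the 3-count floor used for groups at 0, cover counting error only.

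Klrg1 averaged 230 ± 87.5 CPM in mature and 18.5 ± 16.3 CPM in immature control libraries (SD, n = 3 each). The log2 fold change, mature over immature, was 3.56 ± 0.53 (SE, 95% interval 2.52 to 4.61, adjusted p = 3.13e-06), an 11.8-fold difference. The ratio of the summed counts, scaled to library size, was 12.6 with an exact interval of 5.10 to 40.4. If KLRG1 protein was used to sort the stages, the difference in its transcript restates the gate; since the sort markers are not named, a gate on KLRG1 and an independent difference cannot be told apart. In bulk RNA, moreover, fewer positive cells and less transcript per cell cannot be told apart.

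The same contrast in CD45 KO marrow used none of these 6 libraries. Klrg1 had 238, 110 and 326 CPM in mature and 0, 17.3 and 10.5 CPM in immature CD45 KO libraries. The groups again did not overlap, with a log2 fold change of 4.35 ± 0.56 (adjusted p = 2.60e-08). The stage difference in CD45 KO minus that in control was 0.79 ± 1.04 on the log2 scale, with an interval of -1.28 to 2.85 (unadjusted p = 0.45), too wide to show whether the genotypes differed. Lung control ILC2 had 132, 107 and 132 CPM of Klrg1, above all 3 immature and below all 3 mature control marrow libraries, the lowest of which was at 134 CPM; lung libraries had Xist and no Y-linked counts, so tissue and sex cannot be told apart there.

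**Figure D1:**
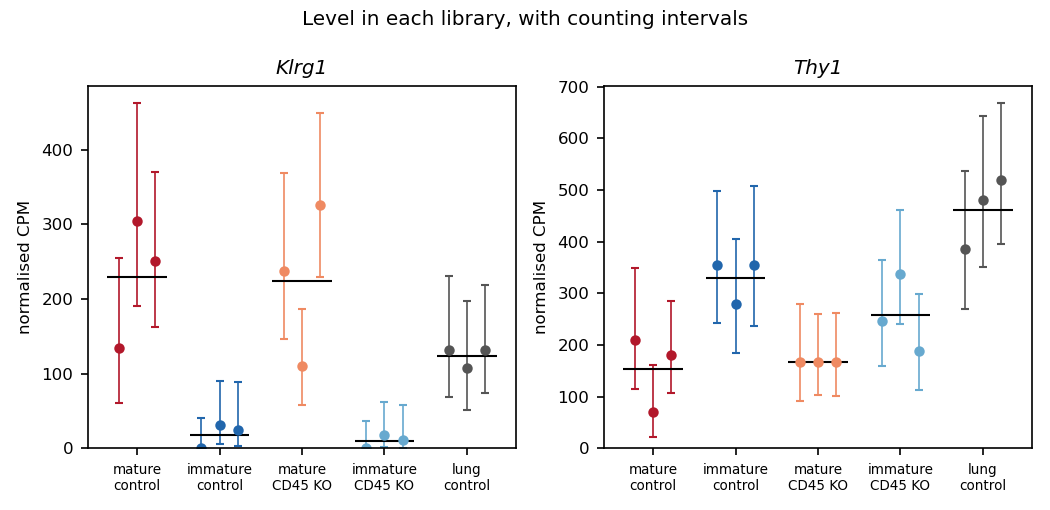
Normalised CPM of Klrg1 (left) and Thy1 (right) in each library of mature and immature control marrow ILC2, mature and immature CD45 KO marrow ILC2 and lung control ILC2; points are libraries, bars their 95% Poisson counting intervals and black lines group means. Klrg1 sits between 134 and 305 CPM in mature control and between 0 and 31.0 CPM in immature control libraries, while Thy1 lies lower in mature (69.4 to 209 CPM) than in immature control libraries (279 to 354 CPM).

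Thy1, a surface glycoprotein carried by most ILC2, came next in order of p and did not pass (chr9:44043384-44048579, plus strand). It had 209, 69.4 and 180 CPM in mature and 354, 279 and 354 CPM in immature control libraries. Each mature library lay under each immature one, which was the case, in one direction or the other, for 195 of the 1916 genes (10.2%; 97 higher and 98 lower in mature). The log2 fold change was -1.08 ± 0.29 (interval -1.65 to -0.51, unadjusted p = 0.000323, adjusted p = 0.31). When only the 6 control libraries were fitted, 1145 genes were tested and Thy1 passed at an adjusted p of 0.0499. Thy1 had 167, 168 and 167 CPM in mature and 246, 337 and 189 CPM in immature CD45 KO libraries, again without overlap (-0.64 ± 0.27, adjusted p = 0.447).

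Measured over all tested genes together, mature and immature control libraries lay about as close as replicates. The root mean square difference in log2 CPM over the tested genes was 0.53 to 0.62 between a mature and an immature control library (median 0.58 over 9 pairs). It was 0.57 to 0.63 between mature and 0.53 to 0.57 between immature replicates. Between control lung and control marrow libraries it was 1.06 to 1.16. Replicates differed by little more than counting error, at 1.07 to 1.30 chi-square per degree of freedom. A distance over all genes therefore cannot show differences confined to a small number of genes. Fold changes were centred on 0: the median log2 fold change was 0.00, the quartiles were -0.23 and 0.22, and 958 genes (50%) were positive. In all 103 genes (5.38%) had an unadjusted p under 0.05, 55 higher and 48 lower in mature.

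How small a difference could have been seen depended on counts. The limit on low counts was applied over all 6 groups of the series, so that genes counted mainly in lung or CD45 KO libraries were tested here too. For the 866 tested genes averaging under 10 counts per library the median half-width of the 95% interval was 0.93 on the log2 scale, and 15.5% of their intervals lay within 1 either side of no change. For the 109 genes averaging over 100 counts the half-width was 0.26 and all 109 intervals lay within that bound. Over all tested genes, 961 intervals (50.2%) lay within 1 and 158 (8.25%) within 0.5. For the genes averaging over 100 counts a difference of 2-fold thus lay outside the interval, and for most genes averaging under 10 counts the interval reached beyond 2-fold on at least one side.

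**Figure D2:**
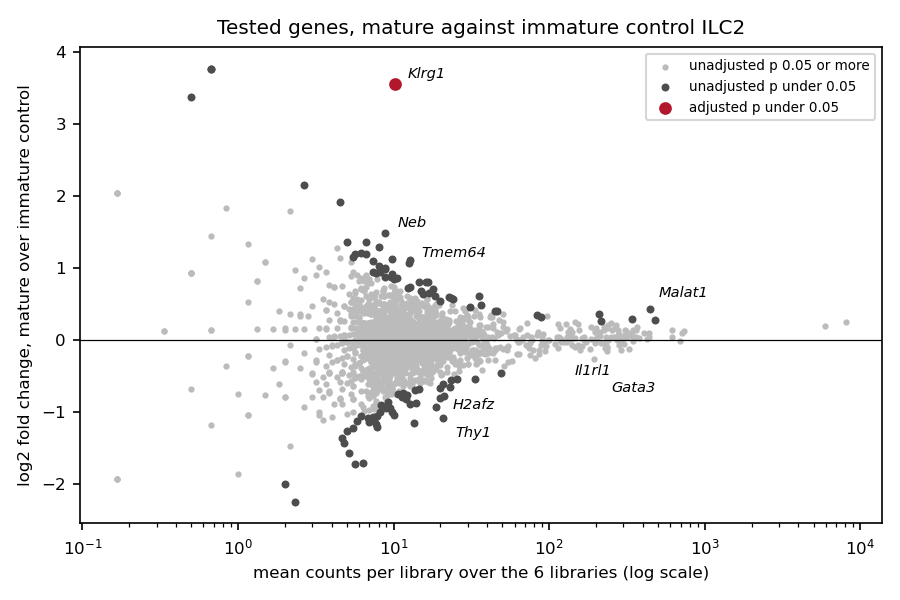
Log2 fold change, mature over immature control, against mean counts per library over the 6 libraries (log axis) for the tested genes with any count there; grey points have an unadjusted p of 0.05 or more, dark points one under 0.05, and the red point passes after adjustment. Klrg1, at a log2 fold change of 3.56, is the only red point, and the spread narrows as counts rise; points at the far left rest on a few counts in all.

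Among 33 tested genes of a panel of 35 that describe ILC2 identity, traffic and function, 1 passed and 3 had an unadjusted p under 0.05, Klrg1, Thy1 and Icos. In 4 the groups did not overlap: Klrg1, Thy1, Rora and Bcl2. Over all tested genes 5.38% had an unadjusted p under 0.05, and the groups did not overlap for 10.2%. For 21 of the 33 the 95% interval lay within a log2 difference of 1 either side of 0.

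The receptors through which ILC2 are activated and kept alive did not pass. Il1rl1, which encodes the IL-33 receptor ST2, had 1460, 1500 and 1650 CPM in mature and 1510, 1540 and 1450 CPM in immature control libraries. The groups overlapped and the log2 fold change was 0.04 ± 0.15 (interval -0.26 to 0.33), so a difference as large as 1.5-fold lay outside its interval. Il7r, the IL-7 receptor chain needed for lymphocyte survival, was at 0.04 ± 0.18 (interval -0.33 to 0.41) and Il2ra, the high-affinity IL-2 receptor chain, at 0.16 ± 0.18 (-0.20 to 0.52). The sort markers are not named, so for these receptors a gate shared by both stages and a likeness of the stages cannot be told apart. Il17rb, a chain of the IL-25 receptor, was less well fixed: it had 59.6, 236 and 261 CPM in mature and 332, 145 and 183 CPM in immature control libraries (-0.16 ± 0.32), and its log2 fold change was 0.19 without mature replicate 1 and 0.28 without immature replicate 1. Of 11 tested alarmin and cytokine receptor genes, 7 were positive, 0 passed or had an unadjusted p under 0.05, and the median log2 fold change was 0.04, which became -0.02 when counts were scaled by library size alone. Among the 8 of these that averaged 5 counts or more, 4 were positive with a median of -0.02.

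Other surface genes known to change over ILC2 development did not pass. Kit, the stem cell factor receptor, was at 0.06 ± 0.39 and Ly6a, which encodes Sca-1, at -0.19 ± 0.16 on the log2 fold change scale. Icos, a costimulatory receptor, had 224, 305 and 160 CPM in mature and 387, 248 and 354 CPM in immature control libraries. Its groups overlapped, and it did not pass (-0.55 ± 0.26, unadjusted p = 0.0359, adjusted p = 0.858). The integrin chains Itga4 and Itgb7, which together bind mucosal addressin, were at -0.10 ± 0.20 and -0.44 ± 0.27. Of 15 tested stage surface markers 8 were positive, 1 passed (Klrg1), and the median was 0.04, or -0.02 under scaling by library size alone.

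Of 8 tested lectin-like, inhibitory or costimulatory receptor genes, 6 were positive with a median of 0.28, and Klrg1 was the one that passed. Lilrb4a, an inhibitory immunoglobulin-like receptor, was at 0.32 ± 0.32, and Tnfsf11, which encodes RANKL, at 0.41 ± 0.34. A further 21 listed receptor genes of this kind had too few counts to be tested, 12 of them with 0 counts in all 6 libraries.

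Transcription factors of the ILC2 lineage did not pass either. Gata3, the master factor of ILC2, had 1650, 2360 and 2200 CPM in mature and 2650, 2720 and 2060 CPM in immature control libraries. The groups overlapped (-0.26 ± 0.14, interval -0.53 to 0.02, unadjusted p = 0.0672, adjusted p = 0.983). Rora had 343, 430 and 351 CPM in mature and 442, 569 and 476 CPM in immature control libraries. All 3 mature libraries lay under the immature ones, yet the log2 fold change of -0.41 ± 0.23 did not pass (unadjusted p = 0.0764), and in CD45 KO libraries it was 0.22. Id2, the factor shared by innate lymphoid cells, was at -0.05 ± 0.14, and Bcl11b, Ets1, Satb1 and Lmo4 were between -0.13 and 0.08. Of 16 tested lineage factors 7 were positive, with a median of -0.05, and 0 had an unadjusted p under 0.05.

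Foxp1, a forkhead factor of lymphocyte quiescence, was among the 8 lower genes with the smallest p and had 209, 139 and 190 CPM in mature and 310, 372 and 232 CPM in immature control libraries. Its groups did not overlap, and it did not pass (-0.77 ± 0.29, adjusted p = 0.858). Stat6, which relays IL-4 and IL-13 signals, was at -0.70 ± 0.37 and Notch2, a Notch receptor counted with these factors, at 0.49 ± 0.31.

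Genes of earlier innate lymphoid progenitors were thinly counted, with 10 of 24 tested. Tcf7, which encodes TCF-1, a factor of early ILC precursors, had 2, 0 and 1 counts in mature and 6, 2 and 6 counts in immature control libraries. These counts did not reach the limit for testing. The immature-to-mature ratio of the scaled sums was 4.14 with an exact interval of 1.16 to 22.5, and without the limit Tcf7 had an adjusted p of 0.989. Zbtb16, which encodes PLZF, and Il18r1, an IL-18 receptor chain, were picked after their values were seen. Zbtb16 had 0 counts in mature and 7 in immature control libraries, 2.07-fold lower in mature against a floor of 3 counts over the group. The exact interval of its immature-to-mature ratio started at 1.28. Il18r1 had 1 count in mature and 8 in immature control libraries, with an exact interval of 0.952 to 315. In CD45 KO libraries Tcf7 had 5 counts in mature and 6 in immature, Zbtb16 had 4 and 4, and Il18r1 had 3 and 15. Of the 10 tested progenitor genes 3 were positive, the median was -0.08, and 0 passed or had an unadjusted p under 0.05.

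Chemokine receptors that guide ILC2 out of the marrow and into tissue did not pass. Ccr9, the gut-homing receptor, had 969, 833 and 842 CPM in mature and 884, 889 and 928 CPM in immature control libraries. The groups overlapped and the log2 fold change was -0.04 ± 0.19 (interval -0.41 to 0.34). Ccr2, the receptor of monocyte chemoattractants, was at -0.21 ± 0.24, and Cxcr6, the CXCL16 receptor, at -0.19 ± 0.23. Cxcr4, the marrow retention receptor, had 1, 4 and 4 counts in mature and 9, 4 and 5 in immature control libraries, and its interval of -1.94 to 0.32 leaves a several-fold difference possible. S1pr1, the egress receptor, had 0 counts in all 6. Of 10 tested genes of this group 3 were positive with a median of -0.12 (1 of the 6 averaging 5 counts or more), and 0 passed or had an unadjusted p under 0.05.

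**Figure D3:**
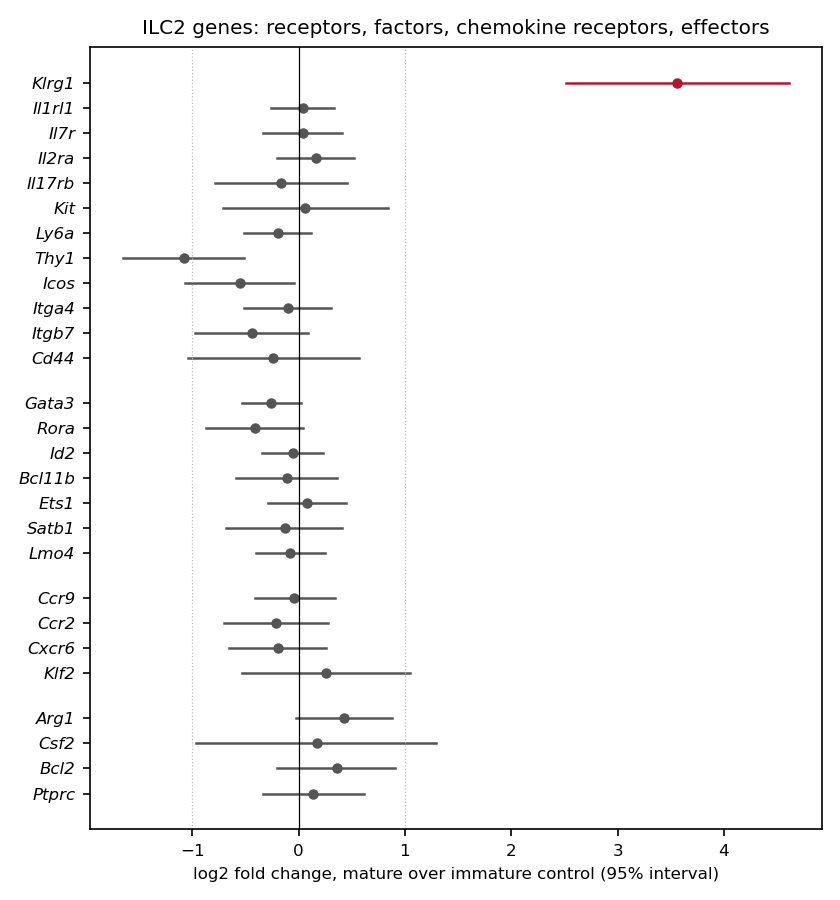
Log2 fold change, mature over immature control, with its 95% interval for ILC2 surface receptors, transcription factors, chemokine receptors with Klf2, and the effector, survival and CD45 genes Arg1, Csf2, Bcl2 and Ptprc, from top to bottom; dotted lines mark a log2 difference of 1 either side of 0. Klrg1 (2.52 to 4.61) stands away from 0, Thy1 (-1.65 to -0.51) and Icos lie below it without passing after adjustment, and the intervals of the other genes shown cross 0.

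Type 2 cytokine transcripts had few counts in both stages. Il5 had 2 counts in mature and 1 in immature control libraries, Il13 had 0 and 1, and Areg, which encodes the repair factor amphiregulin, had 1 and 3, so no fold is given. Il4, an untested type 2 cytokine gene, had 4, 5 and 7 counts in mature and 4, 1 and 5 counts in immature control libraries. Arg1, the arginase that ILC2 express constitutively, had 358, 430 and 401 CPM in mature and 210, 279 and 403 CPM in immature control libraries. The groups overlapped through immature replicate 3 (0.43 ± 0.23, unadjusted p = 0.0607, adjusted p = 0.96). Csf2, which encodes GM-CSF, was at 0.17 ± 0.56.

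Calca, which encodes the neuropeptide CGRP made by some ILC2, had 3, 2 and 8 counts in mature and 2, 0 and 1 counts in immature control libraries, a ratio of scaled sums of 4.88 with an exact interval of 1.34 to 26.7. It did not pass (unadjusted p = 0.00876, adjusted p = 0.858). Ccl5, a chemokine shared with NK cells, had 343, 180 and 170 CPM in mature and 188, 124 and 61.0 CPM in immature control libraries, with overlap (0.81 ± 0.36, adjusted p = 0.858). The list of 14 NK cell and ILC1 markers, which holds Ccl5, summed to 373, 236 and 221 CPM in mature and 254, 176 and 122 CPM in immature control libraries, 4 of the 14 had counts, Ncr1, Eomes, Tbx21 and Prf1 were at 0, and the part of such cells in the Ccl5 values was not tested. Of the 13 tested effector genes 0 passed and 3, Calca, Ccl5 and Lif, had an unadjusted p under 0.05. Over all tested genes 5.38% did. Lif rested on 1, 3 and 0 counts in mature and 0, 0 and 0 counts in immature control libraries, with overlap. As 11 of the 13 averaged under 5 counts here, their signs are not tallied; the other 2, Arg1 and Ccl5, were positive.

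Survival genes had estimates in both directions, and none passed. Bcl2, the anti-apoptotic factor, had 224, 278 and 231 CPM in mature and 210, 176 and 183 CPM in immature control libraries. The groups did not overlap, and the log2 fold change of 0.36 ± 0.28 did not pass. In CD45 KO libraries Bcl2 was at 167, 194 and 202 CPM in mature and 345, 216 and 315 CPM in immature (-0.61 ± 0.25), and the difference of the stage effects, CD45 KO minus control, was -0.96 (unadjusted p = 0.0117, adjusted p = 0.926). Mcl1, another anti-apoptotic factor, had 253, 111 and 150 CPM in mature and 310, 258 and 317 CPM in immature control libraries, without overlap (-0.80 ± 0.29, adjusted p = 0.858). Of 12 tested survival genes 7 were positive, with a median of 0.32.

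Ptprc, which encodes the phosphatase CD45, had 253, 458 and 541 CPM in mature and 464, 362 and 342 CPM in immature control libraries. The groups overlapped (0.14 ± 0.24, interval -0.33 to 0.62). Of 12 tested genes of proximal signalling and CD45 substrates 5 were positive, with a median of -0.03.

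The other genes higher in mature by order of p, among genes averaging 10 counts or more whose libraries separated by stage, were Tmem64, Rpl35a, Malat1, Psme1, Phlda1, Itgb2 and Sec61b, at adjusted p between 0.781 and 0.858. Malat1, an abundant nuclear long noncoding RNA, had 5310, 6570 and 6360 CPM in mature and 4650, 4510 and 4430 CPM in immature control libraries. The gap between groups was narrow beside the level (0.43 ± 0.15, adjusted p = 0.802), and fitting only the 6 control libraries gave an adjusted p of 0.0228. Itgb2, the β2 integrin chain, had 358, 208 and 201 CPM in mature and 111, 176 and 134 CPM in immature control libraries, with mature replicate 1 highest (0.81 ± 0.32). Psme1, a proteasome activator subunit, was at 0.62 ± 0.22, and Sec61b, a subunit of the channel through which proteins enter the endoplasmic reticulum, at 0.71 ± 0.29.

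On the lower side stood, besides Thy1, Mcl1 and Foxp1, the genes BC018473, H2afz, Mif, Rb1cc1 and Serp1, at adjusted p between 0.64 and 0.858. H2afz, which encodes the histone variant H2A.Z, had 164, 125 and 160 CPM in mature and 310, 196 and 366 CPM in immature control libraries. Every mature library lay under every immature one (-0.92 ± 0.31, adjusted p = 0.802). Mif, a cytokine that counters glucocorticoids, had 59.6, 153 and 120 CPM in mature and 232, 207 and 183 CPM in immature control libraries (-0.87 ± 0.32). Rb1cc1, an autophagy initiation factor, was at -1.04 ± 0.40 and Serp1, an endoplasmic reticulum stress protein, at -0.65 ± 0.25.

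Gene lists beyond the ILC2 genes were compared with the 958 of 1916 genes (50%) positive and the median of 0.00 over all tested genes, with no test of a list. In CD45 KO libraries 989 of the 1916 (51.6%) were positive and the median was 0.02. Where members averaging under 5 counts matter the tally is also given without them, a choice made after seeing the data. Of 12 tested unfolded protein response and secretory pathway genes 8 were positive with a median of 0.31; Pdia3, a disulfide isomerase, had 224, 278 and 190 CPM in mature and 133, 134 and 171 CPM in immature control libraries (0.64 ± 0.30, adjusted p = 0.858). In CD45 KO libraries 4 of these 12 were positive and the median was -0.23. Of 10 tested NF-κB subunits and targets 9 were positive in CD45 KO with a median of 0.40, and 3 in control with a median of -0.41. Over members averaging at least 5 counts in the genotype's own 6 libraries, 6 in each case, 5 were positive in CD45 KO with a median of 0.17, and 3 in control with a median of 0.07. Tnfaip3, which encodes the NF-κB inhibitor A20, was at a log2 fold change of 0.97 ± 0.39 in CD45 KO and -0.78 ± 0.35 in control, and this difference did not pass (unadjusted p = 0.00118, adjusted p = 0.761).

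Integrin and adhesion genes had 2 positive of 9 tested with a median of -0.20, and glycolysis and hypoxia genes 3 of 10 with -0.14. Lipid and mitochondrial metabolism genes had 2 of 5 with -0.16, or 2 of the 4 averaging 5 counts or more with -0.05. Glucocorticoid response genes had 7 positive of 10 with a median of 0.21, or 4 of the 7 averaging 5 counts or more with 0.17. Interferon response genes had 7 positive of 16 with a median of -0.02, and oxidative phosphorylation genes 23 of 48 with -0.01. Of 22 tested immediate-early genes, which include transcripts induced by cell handling, 14 averaged under 5 counts, and of the other 8, 3 were positive with a median of -0.07. None of these lists held a gene that passed. Of 80 ribosomal protein genes 59 were positive, but the median was 0.05, and it turned to -0.01 when counts were scaled by library size alone. Antigen presentation genes had 9 positive of 11 with a median of 0.04, which likewise became -0.02. The share of all tested genes that was positive was 41.2% under that scaling, so a share of positive members is read against the scaling used.

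**Figure D4:**
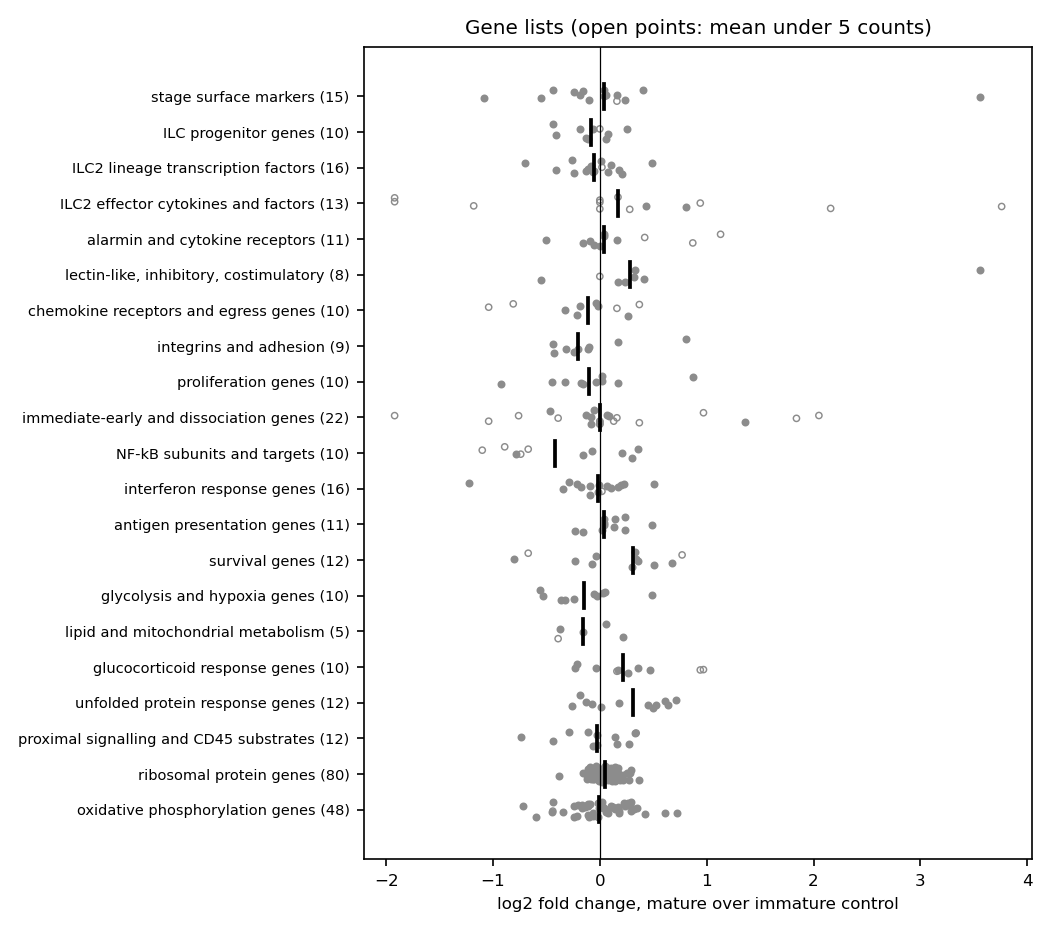
Log2 fold change, mature over immature control, of the tested members of each gene list; the number tested is in parentheses, each point is a gene, open points average under 5 counts per library and black bars are medians. Apart from Klrg1 at 3.56, which stands in the surface marker and the receptor list, the filled points lie between -1.22 (Slfn2) and 1.36 (Zfp36), and medians run from -0.41 (NF-κB, 0.07 over its filled points) to 0.32 (survival).

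Proliferation genes did not pass between control stages. Of 10 tested members 4 were positive, the median was -0.10, and 1, H2afz, had an unadjusted p under 0.05. Tuba1b, an α-tubulin, had 164, 264 and 241 CPM in mature and 210, 196 and 268 CPM in immature control libraries (0.02 ± 0.29). Hmgb2, a chromatin protein high in dividing cells, had 89.4, 153 and 201 CPM in mature and 254, 217 and 159 CPM in immature control libraries, with overlap (-0.45 ± 0.34). In CD45 KO libraries 1 of the 10 was positive with a median of -0.60, and Tuba1b and Hmgb2 fell there, by 1.23 and 1.18 on the log2 scale (adjusted p = 0.000302 and 0.0106). The call of Tuba1b was kept when each of the 6 CD45 KO libraries was left out, and that of Hmgb2 was lost without mature replicate 3 or immature replicates 1 or 2 (highest adjusted p = 0.155). The stage difference of Tuba1b in CD45 KO minus that in control was -1.24 (unadjusted p = 0.00126, adjusted p = 0.761).

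The CD45 KO stage comparison served as a second look at the same question in separate libraries. There 13 genes passed (0.678% of those tested; 8.04% had an unadjusted p under 0.05, and groups did not overlap for 12.6%), 7 higher and 6 lower in mature. Klrg1, Btg1, Gimap3, Arl5a, Rnf128, Fgl2 and Nr3c1 rose, and Hist1h2ao, Hist1h2ap, Tuba1b, Pxdc1, Hmgb2 and Lgals1 fell. When each of the 6 CD45 KO libraries was left out in turn, Klrg1, Btg1, Pxdc1 and Tuba1b kept their calls in all 6 fits, Gimap3, Hist1h2ao and Hist1h2ap in 5, Arl5a, Fgl2 and Hmgb2 in 3, Rnf128 in 2, and Nr3c1 and Lgals1 in 1. The DESeq2 Wald test called 3 of the 13 and limma-trend 5. In control libraries 11 of these 13 had the same sign and 5 an unadjusted p under 0.05. For the difference between the genotypes, CD45 KO minus control, 0 genes passed (0% of those tested) by edgeR, by DESeq2 and by limma, 94 (4.91%) had an unadjusted p under 0.05 by edgeR, and the lowest adjusted p was 0.761. Of the 103 control genes at an unadjusted p under 0.05, 67 (65.0%) had the same sign in CD45 KO, where 1038 of all tested genes (54.2%) did; 18 were under 0.05 in both.

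Rnf128, an E3 ubiquitin ligase known from T cell anergy, had 1220, 1100 and 924 CPM in mature and 621, 779 and 704 CPM in immature CD45 KO libraries, and 1030, 1250 and 1050 CPM in mature and 774, 920 and 915 CPM in immature control libraries. Both genotypes separated without overlap, at 0.61 ± 0.15 in CD45 KO (adjusted p = 0.0291) and 0.35 ± 0.16 in control (adjusted p = 0.858). The CD45 KO call was lost in 4 of the 6 fits that left out 1 library (highest adjusted p = 0.244). Btg1, an antiproliferative factor, rose in CD45 KO (0.76 ± 0.15, adjusted p = 0.000889) and was at 0.09 ± 0.16 in control. Lgals1, which encodes galectin-1, had 0, 0 and 2 counts in mature and 5, 3 and 4 counts in immature control libraries, a ratio of scaled sums, immature to mature, of 5.33 with an exact interval of 1.19 to 49.0. Pxdc1 had 0 counts in mature and 16 in immature CD45 KO libraries, but 9 and 13 counts in control libraries. In CD45 KO it was 5.40-fold lower in mature against a floor of 3 counts over the group. The exact interval of its immature-to-mature ratio there started at 3.91.

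Averaging the stage difference over both genotypes used 6 libraries a stage and contains the control libraries, so it is not independent of them. It called 18 genes (0.939%; 7.93% at an unadjusted p under 0.05), 8 higher and 10 lower in mature. Klrg1 was at 3.96 ± 0.38 (adjusted p = 2.67e-13). Higher with it were Neb, Gimap3, Malat1, Rnf128, Fgl2, Tacc1 and Btg1, and lower were Hist1h2ao, H2afz, Thy1, Lgals1, Pxdc1, Hist1h2ap, BC018473, Stab2, Hmgb2 and Mif. Thy1 fell by 0.86 on the log2 scale (SE 0.20, adjusted p = 0.00907) and H2afz by 0.91 (SE 0.21, adjusted p = 0.00907). The calls of Klrg1, Neb, Gimap3 and H2afz were kept when each of the 12 libraries was left out in turn, Thy1 lost its call without mature control replicate 2 or immature CD45 KO replicate 2 (highest adjusted p = 0.105), Hmgb2 lost its call in 7 of the 12 fits (highest adjusted p = 0.234), Fgl2, Btg1 and Stab2 in 6, and Mif in all 12. The DESeq2 Wald test called Klrg1 alone here.

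Neb, which encodes the giant muscle protein nebulin, had 119, 208 and 150 CPM in mature and 77.4, 51.7 and 36.6 CPM in immature control libraries. The groups did not overlap (1.49 ± 0.45, adjusted p = 0.64), nor did they in CD45 KO, with 453, 202 and 185 CPM in mature and 78.9, 156 and 116 CPM in immature libraries (1.16 ± 0.31, adjusted p = 0.0507). Averaged, it rose by 1.32 ± 0.27 (adjusted p = 0.0055). Gimap3, a GTPase of lymphocyte survival, had 551, 611 and 692 CPM in mature and 509, 579 and 317 CPM in immature control libraries. These overlapped (0.40 ± 0.20), while in CD45 KO it rose without overlap (0.80 ± 0.17, adjusted p = 0.00302).

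**Figure D5:**
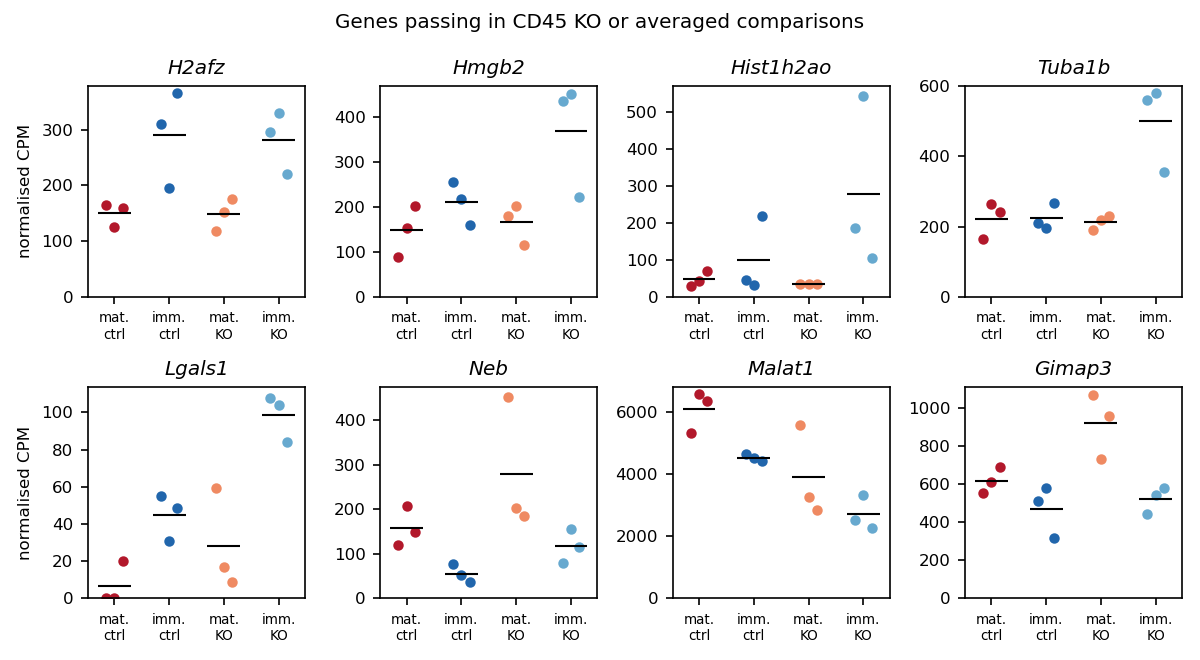
Normalised CPM per library of 8 genes that passed in the CD45 KO or the averaged stage comparison, in mature (mat.) and immature (imm.) marrow ILC2 of control (ctrl) and CD45 KO mice; points are libraries and lines group means. H2afz lies lower in mature libraries of both genotypes (125 to 164 CPM against 196 to 366 CPM in control), whereas the stages overlap for Tuba1b in control and not in CD45 KO libraries, and the Hist1h2ao mean of immature CD45 KO rests on replicate 2 at 545 CPM.

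Promoter starts are shown for H2afz and Hmgb2, the tested proliferation genes called lower in the averaged comparison, and for the histone gene Hist1h2ao; they were picked after their values were seen. The sequences are RefSeq promoters on GRCm38.p6, from 250 bases before to 50 bases after the gene start used for that set. They are on the gene's strand, with each CCAAT box (CCAAT, or ATTGG on the other strand) in capitals. They cover chr3:137864237-137864536 (H2afz, plus strand), chr8:57511593-57511892 (Hmgb2, plus strand) and chr13:21810117-21810416 (Hist1h2ao, plus strand). In GENCODE M21 Hmgb2 starts at 57511907 and Hist1h2ao at 21810465, so their windows end before those starts.
H2afz: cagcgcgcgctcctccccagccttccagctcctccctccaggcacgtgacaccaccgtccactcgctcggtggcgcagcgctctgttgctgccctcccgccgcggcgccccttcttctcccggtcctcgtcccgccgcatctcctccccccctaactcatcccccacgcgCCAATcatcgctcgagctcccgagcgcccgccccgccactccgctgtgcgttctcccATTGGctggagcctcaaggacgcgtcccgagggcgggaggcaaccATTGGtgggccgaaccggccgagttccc
Hmgb2: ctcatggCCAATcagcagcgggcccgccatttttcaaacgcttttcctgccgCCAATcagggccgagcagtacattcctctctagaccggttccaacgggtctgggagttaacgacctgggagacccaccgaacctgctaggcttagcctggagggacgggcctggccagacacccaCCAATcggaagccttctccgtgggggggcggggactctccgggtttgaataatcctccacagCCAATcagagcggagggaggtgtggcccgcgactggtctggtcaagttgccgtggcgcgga
Hist1h2ao: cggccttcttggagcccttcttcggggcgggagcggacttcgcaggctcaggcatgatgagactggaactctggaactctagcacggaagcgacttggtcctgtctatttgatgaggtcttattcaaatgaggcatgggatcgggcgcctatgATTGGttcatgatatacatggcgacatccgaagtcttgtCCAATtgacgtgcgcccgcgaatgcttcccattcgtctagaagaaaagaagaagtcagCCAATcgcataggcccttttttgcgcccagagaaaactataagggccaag
They hold 3, 4 and 3 matches. At least 1 match was found in 37.4% of the 32851 promoters of the same length and at least 2 in 11.7%. Of the 18 genes called in the averaged comparison 12 had a promoter sequence, and 5 of these 12 held at least 1 match and 4 at least 2. These 4 were the genes shown, picked as stated, and Hist1h2ap. The Hist1h2ap promoter shares an identical run of 200 bases, with the same matches, with that of Hist1h2ao. A match describes letters in the window and is no evidence of binding.

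Hist1h2ao and Hist1h2ap, which encode H2A, cannot be counted apart with certainty: their transcripts of 480 and 482 bases share an identical run of 452 bases, and their promoters one of 200 bases. Hist1h2ao had 2, 3 and 7 counts in mature and 4, 3 and 18 counts in immature control libraries. One immature library carried most of the counts (-0.89 ± 0.63, unadjusted p = 0.167). In CD45 KO it had 3, 4 and 4 counts in mature and 19, 63 and 10 counts in immature libraries, and it lost its call without immature CD45 KO replicate 2 (adjusted p = 0.144); in the averaged comparison both histone genes lost theirs without that library or without immature control replicate 3.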

How the data were processed

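The deposited table holds the authors' counts, whole numbers for each gene symbol and library without scaling. Per the labels' protocols, lysates were reverse transcribed from oligo-dT primers with molecular barcodes, with template switching, PCR and ERCC spike-in RNA; the table holds 0 ERCC entries. The submitters' processing notes name STAR and mm10 without version or role. Not given in the sources used here are the counting tool, its annotation, use of strand and collapsing of barcodes. Oligo-dT priming samples transcript 3′ ends.

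Libraries were grouped by the labels in 6 groups of 3. One immature title is spelled differently in the labels and was matched by stage, genotype and number. Counts were scaled with TMM factors on totals over all genes, filterByExpr by group removed genes under a minimum count of 10, and 6 group means over all 18 libraries were fitted with edgeR 4.0.16 under R 4.3.3 (12 residual degrees of freedom). Contrasts were tested with the quasi-likelihood test and Benjamini-Hochberg adjustment over 1916 genes, threshold 0.05. The standard error is the absolute log2 fold change over the square root of F. Levels are CPM. Floors for a count of 0 (3 counts) were 30.1 to 44.7 CPM in the 6 libraries. Replicate pairs differed by 1.07 to 1.30 chi-square per degree of freedom, and each was kept as a separate library, as labelled.

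The members, gene lists and panel were chosen with earlier results of these data known. Genes named were the panel, the 8 higher and 8 lower genes of smallest p (mean of at least 10 counts, groups not overlapping, predicted gene models left out), genes passing a contrast, and up to 4 members of each list, with exceptions stated; the text gives part of them. Alternatives were DESeq2 1.42.0, its size factors, limma 3.58.1, other filters, a fit of the contrast's libraries alone, a replicate block and leaving out each library. Steps were tested on simulated data. Gene positions, apart from the promoter windows, are from GENCODE M21.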

Additional observations from a re-analysis of the deposited data

Results flagged for a closer look

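Neutrophil and granulocyte precursor markers, none of whose 14 genes met the limit on low counts of the main comparison, summed to 2850 CPM in mature control replicate 1. They summed to 180 and 100 CPM in the other mature control libraries, to 55.3, 41.4 and 12.2 CPM in immature control libraries and to between 0 and 70.4 CPM in the 12 remaining libraries of the series. Mature control replicate 1 held 75 counts of S100a8, 67 of S100a9 and 17 of Ngp, genes of neutrophil granules and cytosol. Without that limit Ngp, S100a8 and S100a9 passed as higher in mature. Klrg1 was 134 CPM in this library, the lowest of the 3 mature controls. Without it the Klrg1 call remained, and the part of such RNA in other differences was not tested.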

How the results depend on the processing

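The control count of 1 gene was 4 without a filter on low counts, where Ngp, S100a8 and S100a9 joined Klrg1, and 3 when only the 6 libraries of the contrast were fitted. It stayed at 1 when each library was left out in turn and under the other settings. Klrg1 passed under all 16 alternatives, with log2 fold changes from 2.69 (limma-trend) to 4.18, from 3.02 to 4.18 when leaving out 1 library, and a highest adjusted p of 0.00238 (DESeq2). The CD45 KO count of 13 was 3 by the DESeq2 Wald test, 5 by limma-trend, 7 with only the contrast's libraries and between 8 and 19 when leaving out 1 library, with 8 when any of the immature CD45 KO libraries was the one left out. The averaged count of 18 was 1 by the DESeq2 Wald test and between 8 and 17 when leaving out 1 library: 8 without mature control replicate 2, 9 without immature control replicate 1 and 10 without immature CD45 KO replicate 2. The difference between genotypes stayed at 0. The causes were not tested. With a replicate block the control count was 1 and Klrg1 was at 3.51 (adjusted p = 2.10e-06). The CD45 KO, difference and averaged counts were then 14, 0 and 19. Deviations from group means correlated at -0.004, 0.035 and -0.003 between same-numbered mature and immature control libraries. Replicates differed by little more than counting error (1.07 to 1.30 chi-square per degree of freedom). These correlations therefore cannot show whether the numbers pair the libraries. Of the alternatives chosen after seeing the data, leaving out the genes Rn45s and Rn4.5s gave 1, 12, 0 and 16 calls in the control, CD45 KO, difference and averaged comparisons, and leaving out both mature libraries numbered 1 gave 1, 13, 0 and 14, with Klrg1 at 3.79. Over 61 other named genes and 961 values, 2 gained a call (Malat1 and Thy1, in the contrast's libraries alone), 39 had the opposite sign without a call, and 0 reversed with one. The median log2 fold change of all genes was 0.01 with DESeq2 size factors and -0.05 with library size alone. Depth limits genes averaging under 10 counts most.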

Other observations

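Listed genes without enough counts to be tested add to the account only as sums of raw counts, over total counts of 247012 in mature and 266851 in immature control libraries. Of 389 such genes 125 had 0 counts in all 6 libraries. The 27 untested proliferation genes summed to 114 counts in mature and 142 in immature control libraries, with 8 higher and 17 lower in mature after scaling. Mki67, the marker of cycling cells, had 0 counts in mature and 5 in immature control libraries, 4 of them in immature replicate 1. In CD45 KO libraries Mki67 had 2 counts in mature and 20 in immature, Top2a, a replication topoisomerase, 5 and 28, and Stmn1, a regulator of microtubules, 5 and 31. In control libraries Top2a had 8 and 7 counts and Stmn1 had 1 and 2. These 3 genes were chosen after their values were seen.

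The 14 untested ILC progenitor genes summed to 60 counts in mature and 89 in immature control libraries, and the 16 untested lineage factors to 104 and 137. The 12 untested effector genes summed to 25 and 18 counts, and the 19 untested interferon response genes to 109 and 94.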
